A study of Homo sapiens with 16 samples.

Results

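Baseline expression was compared between the cell lines Hs578 and TT642, neither exposed to doxycycline. The comparison takes 8 of the 16 libraries in the series. They are the 4 Hs578 and the 4 TT642 libraries without doxycycline, chosen by their titles and not by any measured value. For each line there are parental cells, which hold no hairpin, and 3 derived lines. Each derived line carries 1 of 3 hairpins against PRRX1, numbered 1 to 3, whose expression doxycycline switches on. In the 8 libraries compared the hairpins were therefore uninduced. The other 8 libraries received 3 ug/ml doxycycline and serve only as a repeat of the comparison. Each kind of cell gave 1 library. The labels do not name separate cultures for the 4 libraries of a line. The p-values therefore rest on library-to-library spread, which may be technical. The labels hold no batch or date. A batch that followed the line, had there been one, and the line itself cannot be told apart.

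The labels give Hs578 as breast cancer cells and TT642 as rhabdoid tumour cells, whereas the design text of the series describes both as triple-negative breast cancer lines. Triple-negative breast cancers lack the oestrogen and progesterone receptors and HER2, and some of them have the appearance and gene expression of mesenchymal cells. Rhabdoid tumours are childhood cancers of kidney, brain and soft tissue, most of which lose SMARCB1, a core subunit of the SWI/SNF chromatin remodelling complex. PRRX1 is a homeobox transcription factor of limb and craniofacial mesenchyme.

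Total counts ran from 16458898 to 20386835 per library. Levels are CPM, the share of a library's counts scaled to a common depth with the TMM method. Per-library values are given for the parental cells and then for hairpin lines 1, 2 and 3, and values with ± are the mean and SD of the 4 libraries of a line. Where a pair of levels is joined by "against", Hs578 comes first and TT642 second. A positive log2 fold change means higher in Hs578. Adjusted p-values are from edgeR. The SE is the size of the log2 fold change divided by the square root of the F statistic of edgeR's test. It is not an interval for counting error. Where a line held few counts of a gene, the counting error alone may be larger than the SE printed. Log2 CPM values correlated across genes at 0.993 to 0.995 within Hs578, at 0.986 to 0.993 within TT642 and at 0.597 to 0.611 between the lines. The TT642 parental library stood slightly apart from its hairpin lines, at 0.986 to 0.988. The share of mitochondrial transcripts was 2.16% to 2.79% in Hs578 and 2.60% to 3.28% in TT642. Where a line held 10 counts or fewer of a gene in all, leaving out 1 library can move its mean by more than 1.5 times. In bulk RNA, fewer cells of a type and less RNA per cell cannot be told apart.

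Of 20114 genes in the table, 13066 passed the filter on low counts and were tested with edgeR's quasi-likelihood test. At an adjusted p under 0.05, 11058 genes were called, 84.6% of those tested. Of these, 5602 (42.9%) were higher in Hs578 and 5456 (41.8%) were higher in TT642. A call alone thus says little about a gene here, and the gene groups below are counted by calls of at least 2-fold. Those calls took in 6049 genes, 46.3% of those tested, with 3310 (25.3%) higher in Hs578 and 2739 (21.0%) higher in TT642. Shares of a gene group below are percents of its tested members, to be read against 25.3% in Hs578 and 21.0% in TT642. A gene near 0 in 1 line passed the filter through the other line, which fixes its direction. The median size of the log2 fold change over all tested genes was 0.905, and 1377 genes in Hs578 and 795 in TT642 were called with a difference of more than 10-fold.

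**Figure D1:**
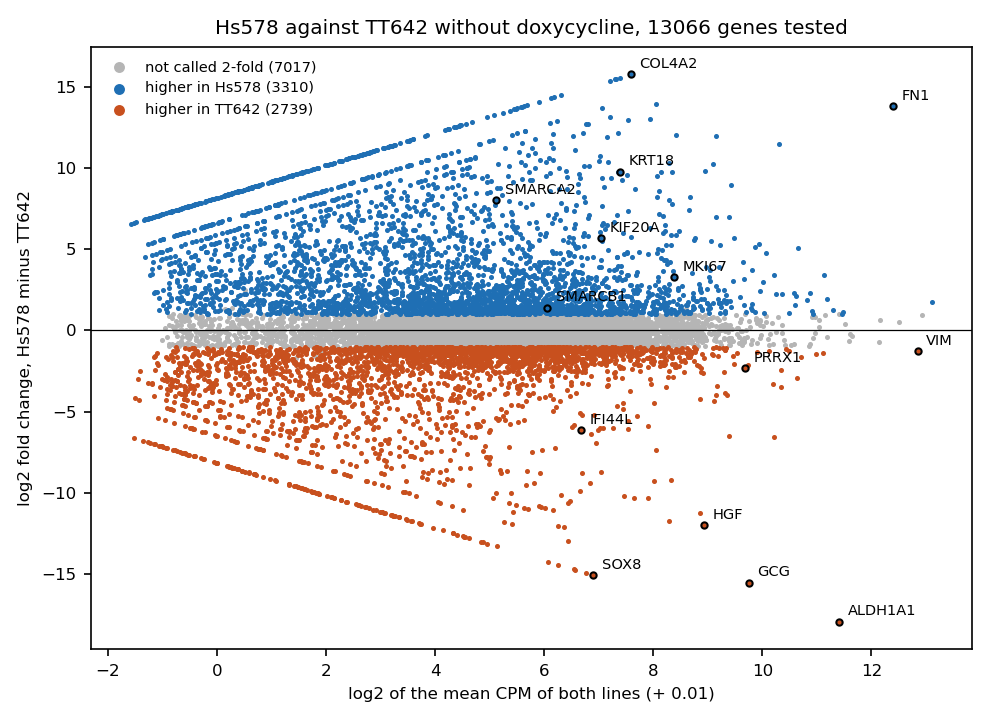
Log2 fold change (Hs578 minus TT642) of each of the 13066 tested genes against the log2 of its mean CPM over both lines, blue where called at least 2-fold higher in Hs578 (3310 genes) and orange in TT642 (2739 genes). The straight outer edges are genes with 0 or very few counts in one line, whose fitted fold change depends on the prior count.

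The 6 marker genes set for the comparison differed beyond the spread of the libraries. FN1, which encodes the matrix protein fibronectin, stood at 10300, 12200, 10300 and 10400 CPM in Hs578 and 0.757, 1.14, 0.198 and 0.958 CPM in TT642. The 2 lines did not overlap, and the ratio of their means was 14200 (log2 fold change 13.8, SE 0.285, adjusted p = 1.94e-11). KRT18, a keratin of simple epithelia, stood at 289, 316, 405 and 338 CPM in Hs578 and 0.662, 0.114, 0.346 and 0.338 CPM in TT642. For KRT18 the lines did not overlap, with Hs578 the higher (log2 fold change 9.78, SE 0.227, adjusted p = 5.6e-12). MKI67, the proliferation marker Ki-67, stood at 606, 657, 605 and 556 CPM in Hs578 and 37.3, 68, 66.9 and 73.8 CPM in TT642. The TT642 parental library was the lowest of the 8, and the lines did not overlap (log2 fold change 3.3, SE 0.2, adjusted p = 2.01e-07). PRRX1 ran the other way, at 292, 296, 229 and 266 CPM in Hs578 and 1510, 1220, 1430 and 1320 CPM in TT642. Even the lowest TT642 library lay above the highest Hs578 library (log2 fold change -2.34, SE 0.0992, adjusted p = 1.98e-10).

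**Figure D2:**
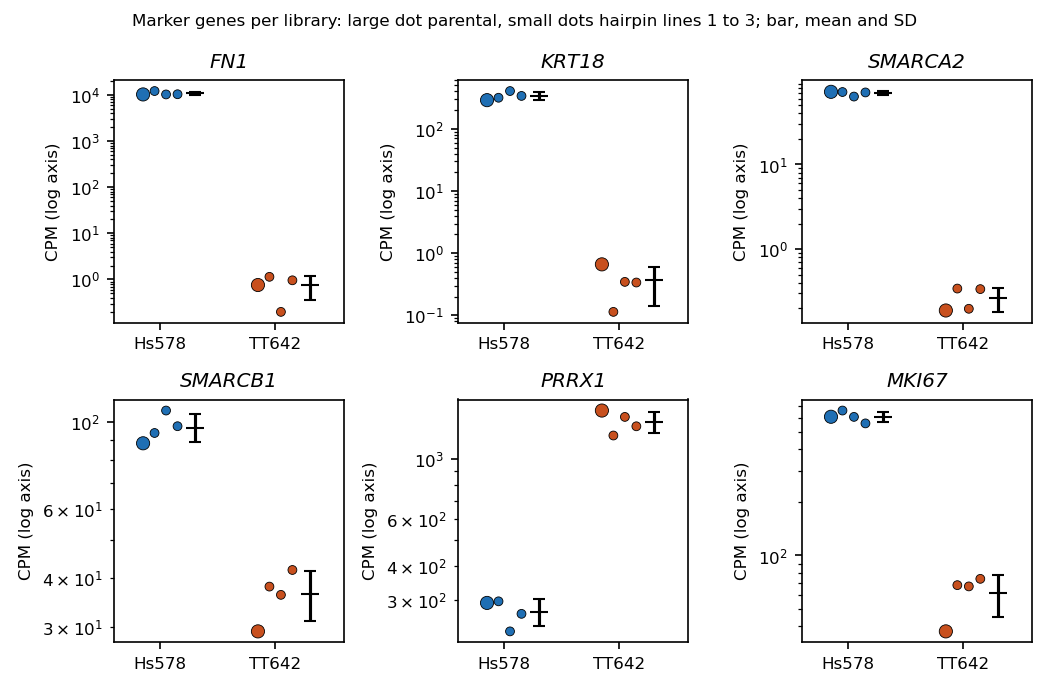
CPM of the 6 marker genes in each library on log axes, Hs578 in blue and TT642 in orange. The large dot is the parental library, the small dots are hairpin lines 1 to 3 from left to right, and the bar gives the mean and SD of the 4 libraries. In each panel the 2 lines do not overlap, and PRRX1 is the one gene of the 6 that is higher in TT642.

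The rhabdoid label was checked against SMARCB1. Its RNA was present in TT642, at 88.3, 93.8, 107 and 97.6 CPM in Hs578 and 29.3, 38.1, 36.3 and 42 CPM in TT642. The TT642 libraries all lay below the Hs578 libraries, 2.65-fold lower by the means (log2 fold change 1.41, SE 0.104, adjusted p = 4.5e-08). Whether the gene or protein is intact in TT642 was not tested. SMARCA2, which encodes BRM, 1 of the 2 alternative ATPases of the complex, stood at 72, 71.6, 63.3 and 70.8 CPM in Hs578 and 0.189, 0.343, 0.198 and 0.338 CPM in TT642. The SMARCA2 levels lay apart, with Hs578 above TT642 (log2 fold change 8.02, SE 0.145, adjusted p = 1.49e-13). SMARCA4, which encodes the other ATPase, BRG1, was at 281 ± 4.88 against 310 ± 5.01 CPM (log2 fold change -0.14, SE 0.0567, adjusted p = 0.0347). Thus TT642 held RNA of SMARCA4 at about the level of Hs578 and hardly any of SMARCA2.

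Among 27 tested SWI/SNF subunits, 3 were called at least 2-fold higher in Hs578 and 5 in TT642, together 29.6% against 46.3% over all genes, and the median log2 fold change was -0.154. BCL7A, a small accessory subunit, was at 7.92 ± 0.372 against 44.8 ± 1.99 CPM (log2 fold change -2.5, SE 0.0811, adjusted p = 1.65e-11). SMARCD3, a subunit known from heart and muscle forms of the complex, was at 10.2 ± 1.1 against 56.7 ± 8.83 CPM (log2 fold change -2.47, SE 0.126, adjusted p = 1.23e-09). ARID1A, the DNA-binding subunit of the canonical complex, was at 155 ± 4.77 against 498 ± 41 CPM (log2 fold change -1.69, SE 0.0737, adjusted p = 2.6e-10). The Polycomb repressive complex 2, which opposes SWI/SNF at many genes, had 16 tested subunits and partners. Of these, 4 (25%, against 25.3% over all genes) were at least 2-fold higher in Hs578 and 3 (18.8%, against 21.0%) in TT642. Both shares were thus near those over all genes. The methyltransferase of the complex, EZH2, stood at 32 ± 0.534 against 40.7 ± 3.82 CPM (log2 fold change -0.346, SE 0.0802, adjusted p = 0.00139). The histone-binding protein gene RBBP7 was at 334 ± 8.96 against 68.3 ± 1.64 CPM (log2 fold change 2.29, SE 0.0606, adjusted p = 2.95e-12).

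Epithelial genes were mostly near 0 in both lines. Of 24 epithelial genes in the table only 10 passed the filter. EPCAM, an epithelial adhesion molecule, was at 0.104 ± 0.0565 against 0.102 ± 0.0918 CPM, and CDH1, which encodes E-cadherin, was at 0.209 ± 0.11 against 0.0644 ± 0.0204 CPM. Neither was tested. Of those tested, 4 (40%) were called at least 2-fold higher in Hs578 and 3 (30%) in TT642. The desmosomal plaque protein gene DSP stood at 209, 222, 194 and 185 CPM in Hs578 and 0.757, 0.0571, 0.148 and 0.169 CPM in TT642. DSP was higher in every Hs578 library than in any TT642 library (log2 fold change 9.37, SE 0.278, adjusted p = 1.95e-10). The parental library was the highest of the TT642 values, whose mean fell from 0.283 to 0.125 CPM without it. LSR, a protein of tricellular junctions, was instead at 1.06 ± 0.192 against 18.7 ± 4.08 CPM (log2 fold change -4.12, SE 0.203, adjusted p = 8.36e-10). Keratins went with Hs578: of 8 tested, 6 were at least 2-fold higher there and 1 in TT642, with a median log2 fold change of 4.7. KRT8, the partner of KRT18, was at 35.1 ± 3.47 against 0.661 ± 0.332 CPM (log2 fold change 5.71, SE 0.211, adjusted p = 8.6e-11). KRT15 was at 15.5 ± 1.88 against 0.0903 ± 0.0445 CPM (log2 fold change 7.31, SE 0.239, adjusted p = 1.75e-11).

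Breast markers were thin in both lines. ESR1, the oestrogen receptor, was at 0.353 ± 0.184 against 0 ± 0 CPM and was not tested. ERBB2, which encodes HER2, was at 75.9 ± 3.03 against 137 ± 18.5 CPM (log2 fold change -0.853, SE 0.0933, adjusted p = 2.02e-06). Of 10 tested luminal breast genes, 5 (50%) were at least 2-fold higher in Hs578 and 2 (20%) in TT642. The latter share was near the 21.0% over all genes. MUC1, a mucin of luminal cells, was at 13.6 ± 1.43 against 72 ± 15.9 CPM (log2 fold change -2.4, SE 0.153, adjusted p = 3.09e-08). GATA3, a luminal transcription factor, was not called, at 6.98 ± 0.755 against 6.52 ± 1.66 CPM (log2 fold change 0.096, SE 0.173, adjusted p = 0.611). Among basal breast genes, 6 of 10 tested (60%) were at least 2-fold higher in Hs578. EGFR was at 279 ± 28.5 against 9 ± 2.54 CPM (log2 fold change 4.95, SE 0.196, adjusted p = 3.22e-09). EN1, a homeobox factor of basal-like cancers, was at 11.2, 13.2, 13 and 10.6 CPM in Hs578 and 0 CPM in every TT642 library. EN1 was thus at least 76.1-fold higher in Hs578. The one basal gene at least 2-fold higher in TT642 was ID4, at 0.0578, 0.0591, 0.0615 and 0.0584 CPM in Hs578 and 214, 101, 88 and 87.9 CPM in TT642, where the parental library lay well above the hairpin lines. For ID4 the lines did not overlap, with TT642 the higher (log2 fold change -10.9, SE 0.683, adjusted p = 1.95e-06). The basal keratin KRT14 was at 6.45 ± 0.335 against 0.0141 ± 0.0282 CPM and was higher in every Hs578 library than in any TT642 library. KRT14 had a ratio of scaled count totals of 494 in favour of Hs578 (exact interval 88.2 to 19600, counting error only). Other basal keratins were near 0 in both lines, with KRT5 at 0.0308 ± 0.0615 against 0 ± 0 CPM and KRT17 at 0 ± 0 against 0.175 ± 0.119 CPM.

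Defining genes of blood, endothelium and skeletal muscle were at or near 0. PTPRC, CD3E and CD14, which define blood cells, had means of at most 0.767 CPM, and only 2 of 10 blood genes passed the filter. Both of these were higher in Hs578. LCP1, an actin-bundling protein, was at 78.8 ± 9.44 against 1.41 ± 1.47 CPM (log2 fold change 5.75, SE 0.473, adjusted p = 1.09e-05), with a TT642 mean of 0.68 CPM without the parental library. CD68, a lysosomal protein used as a macrophage marker, was at 65.2 ± 2.87 against 15.7 ± 1.98 CPM (log2 fold change 2.05, SE 0.094, adjusted p = 4.01e-10). CDH5 and VWF, which define endothelium, had means of at most 0.119 CPM. The 1 endothelial gene tested was ERG, a transcription factor, at 10.3, 12.7, 12 and 11.4 CPM in Hs578 and 0 CPM in every TT642 library. ERG was thus at least 73.6-fold higher in Hs578. MYOD1 and MYOG, the regulators of skeletal muscle, were at 0 in all 8 libraries. Of 14 tested neural and neural crest genes, 8 (57.1%) were at least 2-fold higher in TT642 and 3 (21.4%) in Hs578. NES, which encodes the progenitor filament nestin, stood at 0.578, 0.591, 0.431 and 0.876 CPM in Hs578 and 355, 269, 191 and 232 CPM in TT642. The NES levels lay apart, with TT642 above Hs578 (log2 fold change -8.7, SE 0.287, adjusted p = 1.48e-09). The neuronal filament gene INA was at 0 CPM in every Hs578 library and 17.4, 20, 16.4 and 11.2 CPM in TT642, which is at least 91.3-fold higher in TT642, and the RNA-binding protein gene ELAVL3 was at 0.0589 ± 0.0472 against 21.2 ± 6.07 CPM. ELAVL3 was higher in every TT642 library than in any Hs578 library (log2 fold change -8.32, SE 0.415, adjusted p = 3.42e-09). Higher in Hs578 were PAX6 (7.4 against 0.036 CPM) and NCAM1 (25.1 against 0.455 CPM). SOX10, a neural crest factor, was at 0 in all 8 libraries.

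Mesenchymal filament and surface genes were mostly higher in Hs578. VIM, which encodes vimentin, was high in both lines and higher in TT642, at 4300 ± 141 against 10500 ± 469 CPM (log2 fold change -1.28, SE 0.063, adjusted p = 8.03e-10). Of 19 tested, 14 (73.7%) were at least 2-fold higher in Hs578 and 3 (15.8%) in TT642 (VIM, NES and S100A4), with a median log2 fold change of 2.51. The hyaluronan receptor CD44 was at 4130 ± 147 against 380 ± 107 CPM (log2 fold change 3.44, SE 0.21, adjusted p = 2.55e-07). The platelet-derived growth factor receptor PDGFRB stood at 135, 145, 139 and 140 CPM in Hs578 and 2.08, 1.43, 0.692 and 1.41 CPM in TT642. For PDGFRB the lines did not overlap, with Hs578 the higher (log2 fold change 6.63, SE 0.177, adjusted p = 7.68e-12). CSPG4, the NG2 proteoglycan of pericytes, was at 324, 331, 319 and 316 CPM in Hs578 and 2.46, 2.46, 2.37 and 1.97 CPM in TT642. The CSPG4 levels lay apart, with Hs578 above TT642 (log2 fold change 7.11, SE 0.0898, adjusted p = 2.07e-14). Transcription factors of the epithelial-mesenchymal transition split, with 6 of 13 tested (46.2%) at least 2-fold higher in Hs578 and 4 (30.8%) in TT642. FOXC2 was at 58.4, 63, 69.1 and 55.5 CPM in Hs578 and 0 CPM in every TT642 library. FOXC2 was thus at least 390-fold higher in Hs578. TWIST1 was at 22.2, 22.9, 20.4 and 22.8 CPM in Hs578 and 0.709, 1.6, 0.988 and 0.733 CPM in TT642. TWIST1 was higher in every Hs578 library than in any TT642 library (log2 fold change 4.46, SE 0.189, adjusted p = 1.94e-10). ZEB1 was at 76.3 ± 10 against 26 ± 6.6 CPM (log2 fold change 1.55, SE 0.171, adjusted p = 9.19e-06). On the TT642 side stood ZEB2, at 75 ± 6.15 against 158 ± 14 CPM (log2 fold change -1.08, SE 0.0832, adjusted p = 6.62e-08), PRRX1, and its paralogue PRRX2, at 22.7 ± 2.05 against 66.8 ± 13 CPM (log2 fold change -1.56, SE 0.13, adjusted p = 2.16e-07). SNAI2 was not called, at 91.1 ± 9.04 against 84.2 ± 12.8 CPM (log2 fold change 0.114, SE 0.11, adjusted p = 0.348).

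Matrix genes differed in both directions. Collagens I, III and V form the fibrils of connective tissue, and collagen IV forms the sheet of basement membranes. COL1A2, the second chain of collagen I, stood at 2360, 2830, 2220 and 2690 CPM in Hs578 and 0.804, 0.457, 1.38 and 0.733 CPM in TT642. For COL1A2 the lines did not overlap, with Hs578 the higher (log2 fold change 11.5, SE 0.217, adjusted p = 8.78e-13). COL1A1, the other chain, was at 2060, 2380, 2060 and 2190 CPM in Hs578 and 89.6, 178, 385 and 159 CPM in TT642. The COL1A1 levels lay apart, with Hs578 above TT642 (log2 fold change 3.42, SE 0.459, adjusted p = 0.000299). The 2 chains of collagen I thus differed between the lines by unequal amounts, and TT642 had COL1A1 RNA with almost no COL1A2 RNA. By the deposited FPKM values, which allow for transcript length, TT642 held 27.1 of COL1A1 and 0.132 of COL1A2, and Hs578 held 265 and 353. TT642 was higher in COL5A2, at 407 ± 41.5 against 2200 ± 281 CPM (log2 fold change -2.43, SE 0.106, adjusted p = 2.44e-10), and in COL11A1, a cartilage-type fibril collagen, at 0.462, 0.414, 0.123 and 0.234 CPM in Hs578 and 641, 350, 340 and 265 CPM in TT642. COL11A1 was higher in every TT642 library than in any Hs578 library (log2 fold change -10.3, SE 0.496, adjusted p = 2.85e-07). Of 9 tested fibrillar collagens, 3 (33.3%) were at least 2-fold higher in Hs578 and 4 (44.4%) in TT642. Other collagens favoured Hs578, with 10 of 15 (66.7%) against 4 (26.7%). COL6A1 and COL6A2, chains of beaded filaments, were at 3140 ± 126 against 92.9 ± 40 CPM and at 2060 ± 100 against 75.9 ± 8.14 CPM (log2 fold change 5.08, SE 0.337, adjusted p = 2.19e-06 for COL6A1). COL7A1, the anchoring fibril collagen, was at 338, 397, 377 and 356 CPM in Hs578 and 1.37, 2.91, 1.93 and 2.76 CPM in TT642. For COL7A1 the lines did not overlap, with Hs578 the higher (log2 fold change 7.37, SE 0.171, adjusted p = 2.95e-12). COL9A3, a collagen of cartilage, was at 0.0578, 0.118, 0 and 0 CPM in Hs578 and 21.6, 22.7, 28.6 and 34.6 CPM in TT642 (a ratio of scaled count totals of 602 in favour of TT642 (95% exact interval 206 to 2920, counting error only)).

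COL4A1 and COL4A2, which together form the main collagen IV, had no count in any TT642 library. COL4A2 stood at 341, 400, 423 and 384 CPM in Hs578 and 0 CPM in every TT642 library, which is at least 2460-fold higher in Hs578, where the bound takes 3 counts per library as the floor. COL4A1 stood at 273, 323, 303 and 277 CPM in Hs578 and 0 CPM in every TT642 library. COL4A1 was thus at least 1860-fold higher in Hs578. The genes lie head to head on chromosome 13 and are transcribed away from each other. The 126 bases between their RefSeq start sites (GRCh38.p14, chr13:110307158-110307283, plus strand, read towards COL4A2) lie before both genes. They are shown because both genes, which had no count in TT642, start at its ends. CG dinucleotides are in capitals.
COL4A1-COL4A2 intergenic: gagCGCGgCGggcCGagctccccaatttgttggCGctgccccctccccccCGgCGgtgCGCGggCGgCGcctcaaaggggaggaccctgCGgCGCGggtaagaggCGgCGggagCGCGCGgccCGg
The stretch holds 20 CG dinucleotides, a motif of the letters CG that reads the same on both strands. Of 27305 RefSeq promoters, 86.6% hold at least 1 CG in the 126 bases before the start, with a median of 6, and 5.81% hold 20 or more. Promoters of genes not tested here are among them, and the stretch was not compared with tested genes alone. DNA methylation at this stretch was not measured here.

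Of 21 tested basement membrane genes, 14 (66.7%) were at least 2-fold higher in Hs578 and 3 (14.3%) in TT642, with a median log2 fold change of 2.51. LAMB3, a chain of laminin-332, was at 133, 133, 143 and 141 CPM in Hs578 and 0.378, 0.571, 0.198 and 0.282 CPM in TT642. The LAMB3 levels lay apart, with Hs578 above TT642 (log2 fold change 8.58, SE 0.147, adjusted p = 1.09e-13). The basement membrane was not wholly lower in TT642: NID1, the linker nidogen, was at 0.135 ± 0.0793 against 49.8 ± 7.49 CPM (log2 fold change -8.47, SE 0.231, adjusted p = 3.75e-12). LAMC3 was at 0.118 ± 0.0826 against 43.7 ± 6.35 CPM (log2 fold change -8.45, SE 0.234, adjusted p = 4.42e-12). HSPG2, which encodes perlecan, was at 98.6 ± 14.6 against 413 ± 70.8 CPM (log2 fold change -2.07, SE 0.144, adjusted p = 1.08e-07).

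Of 30 tested matrix glycoproteins, 20 (66.7%) were at least 2-fold higher in Hs578, FN1 among them, and 6 (20%) in TT642. EDIL3, an integrin ligand, was at 351, 355, 284 and 288 CPM in Hs578 and 0 CPM in every TT642 library. EDIL3 was thus at least 2030-fold higher in Hs578. THBS1, thrombospondin 1, was at 1090, 1210, 1190 and 899 CPM in Hs578 and 0.993, 0.685, 0.939 and 1.01 CPM in TT642. THBS1 was higher in every Hs578 library than in any TT642 library (log2 fold change 10.2, SE 0.157, adjusted p = 7.16e-14). FBN1, the microfibril protein fibrillin 1, was at 1530 ± 255 against 83 ± 9.89 CPM (log2 fold change 4.2, SE 0.139, adjusted p = 5.54e-11). SPARC was at 1410 ± 78.5 against 27.1 ± 12.5 CPM (log2 fold change 5.69, SE 0.321, adjusted p = 5.96e-07). THBS3 ran opposite to THBS1, at 5.54 ± 0.629 against 203 ± 15.1 CPM (log2 fold change -5.19, SE 0.1, adjusted p = 2.38e-13). Proteoglycans were nearly even, 8 (47.1%) against 6 (35.3%) of 17 tested. VCAN, which encodes versican, stood at 1180, 1370, 923 and 1070 CPM in Hs578 and 0.615, 0.286, 0.0494 and 0.113 CPM in TT642. For VCAN the lines did not overlap, with Hs578 the higher (log2 fold change 12, SE 0.329, adjusted p = 4.17e-10). Without the parental library the TT642 mean of VCAN was 0.149 in place of 0.266 CPM. DCN, which encodes decorin, stood at 78.5, 78.3, 69.4 and 81.6 CPM in Hs578 and 944, 1270, 1560 and 1160 CPM in TT642. The DCN levels lay apart, with TT642 above Hs578 (log2 fold change -4, SE 0.146, adjusted p = 1.79e-10). LUM, which encodes lumican, was at 12.5 ± 0.973 against 158 ± 31.6 CPM (log2 fold change -3.66, SE 0.141, adjusted p = 2.22e-10). SRGN, which encodes serglycin, was at 101, 103, 109 and 97 CPM in Hs578 and 0 CPM in every TT642 library. SRGN was thus at least 650-fold higher in Hs578. The heparan sulfate proteoglycans divided: SDC2 was at 218 ± 5.34 against 0.0284 ± 0.0328 CPM, with a ratio of scaled count totals of 8360 in favour of Hs578 (95% exact interval 2310 to 69000, counting error only), whereas GPC6 was at 8.11 ± 2.59 against 129 ± 13.8 CPM (log2 fold change -3.99, SE 0.192, adjusted p = 1.18e-08).

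Enzymes that fold and crosslink matrix proteins were mostly higher in Hs578, 14 of 20 (70%) against 2 (10%). PLOD2, a lysyl hydroxylase, stood at 569, 617, 427 and 532 CPM in Hs578 and 0.615, 0.228, 0.544 and 1.58 CPM in TT642. PLOD2 was higher in every Hs578 library than in any TT642 library (log2 fold change 9.5, SE 0.324, adjusted p = 5.41e-09). The TT642 mean of PLOD2, 0.742 CPM, was 0.462 CPM without hairpin line 3. LOX, lysyl oxidase, was at 267 ± 35.3 against 2.85 ± 3.32 CPM (log2 fold change 6.59, SE 0.615, adjusted p = 3.82e-05). Hairpin line 1 held most of the TT642 level of LOX, which had a mean of 1.2 CPM without it. SERPINH1, the collagen chaperone HSP47, was higher in TT642, at 166 ± 31.2 against 586 ± 45.6 CPM (log2 fold change -1.82, SE 0.118, adjusted p = 1.94e-08). Among proteases and their inhibitors, 21 of 27 (77.8%) were at least 2-fold higher in Hs578 and 5 (18.5%) in TT642. MMP2, gelatinase A, stood at 497, 562, 575 and 563 CPM in Hs578 and 1.42, 1.83, 0.544 and 2.09 CPM in TT642. For MMP2 the lines did not overlap, with Hs578 the higher (log2 fold change 8.57, SE 0.237, adjusted p = 1.37e-10). ADAM12 was at 193, 199, 170 and 174 CPM in Hs578 and 0, 0.114, 0.0494 and 0 CPM in TT642. ADAM12 had a ratio of scaled count totals of 4700 in favour of Hs578 (95% exact interval 1610 to 22800). ADAMTS12, a disintegrin-type matrix protease, was at 159, 179, 150 and 150 CPM in Hs578 and 0 CPM in every TT642 library. ADAMTS12 was thus at least 1010-fold higher in Hs578. The membrane protease MMP14 was at 264 ± 12.6 against 405 ± 26.3 CPM (log2 fold change -0.617, SE 0.0697, adjusted p = 2.77e-06). MMP10, stromelysin 2, was at 0.162 ± 0.0555 against 24.8 ± 13.8 CPM (log2 fold change -7.2, SE 0.717, adjusted p = 2.82e-05). Both were thus higher in TT642.

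Integrins are the receptors for this matrix. All 16 tested were called, against 84.6% over all genes. Of these, 13 (81.2%, against 25.3% over all genes) were at least 2-fold higher in Hs578 and 1 (6.25%, against 21.0%) in TT642. The median log2 fold change was 4.74. ITGA2, a collagen receptor chain, stood at 555, 570, 398 and 451 CPM in Hs578 and 0.0473, 0.114, 0.0494 and 0 CPM in TT642. The ITGA2 levels lay apart, with Hs578 above TT642 (log2 fold change 13, SE 0.255, adjusted p = 7.33e-13). ITGA5, the fibronectin receptor chain, was at 979 ± 25.2 against 74.6 ± 7.89 CPM (log2 fold change 3.71, SE 0.0876, adjusted p = 1.05e-12). ITGA8 was at 92, 94.5, 84.9 and 85.5 CPM in Hs578 and 0 CPM in every TT642 library. ITGA8 was thus at least 566-fold higher in Hs578. ITGAV was the one gene at least 2-fold higher in TT642, at 179 ± 34.8 against 469 ± 78 CPM (log2 fold change -1.39, SE 0.154, adjusted p = 8.33e-06). Of 14 cadherins and protocadherins tested, 8 (57.1%) were at least 2-fold higher in Hs578 and 2 (14.3%) in TT642. CDH6 stood at 411, 431, 257 and 374 CPM in Hs578 and 0.662, 0.171, 0.297 and 0.733 CPM in TT642. CDH6 was higher in every Hs578 library than in any TT642 library (log2 fold change 9.59, SE 0.306, adjusted p = 1.74e-09). CDH13 was at 135, 136, 149 and 132 CPM in Hs578 and 0.0473, 0, 0 and 0 CPM in TT642. CDH13 had a ratio of scaled count totals of 10600 in favour of Hs578 (95% exact interval 1900 to 418000). PCDH1 was instead at 1.08 ± 0.311 against 637 ± 49.4 CPM (log2 fold change -9.2, SE 0.146, adjusted p = 7.57e-14). CDH2, which encodes N-cadherin, was not called, at 353 ± 15.7 against 252 ± 185 CPM (log2 fold change 0.483, SE 0.533, adjusted p = 0.422). Without the parental library the TT642 mean of CDH2 was 167 CPM.

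**Figure D3:**
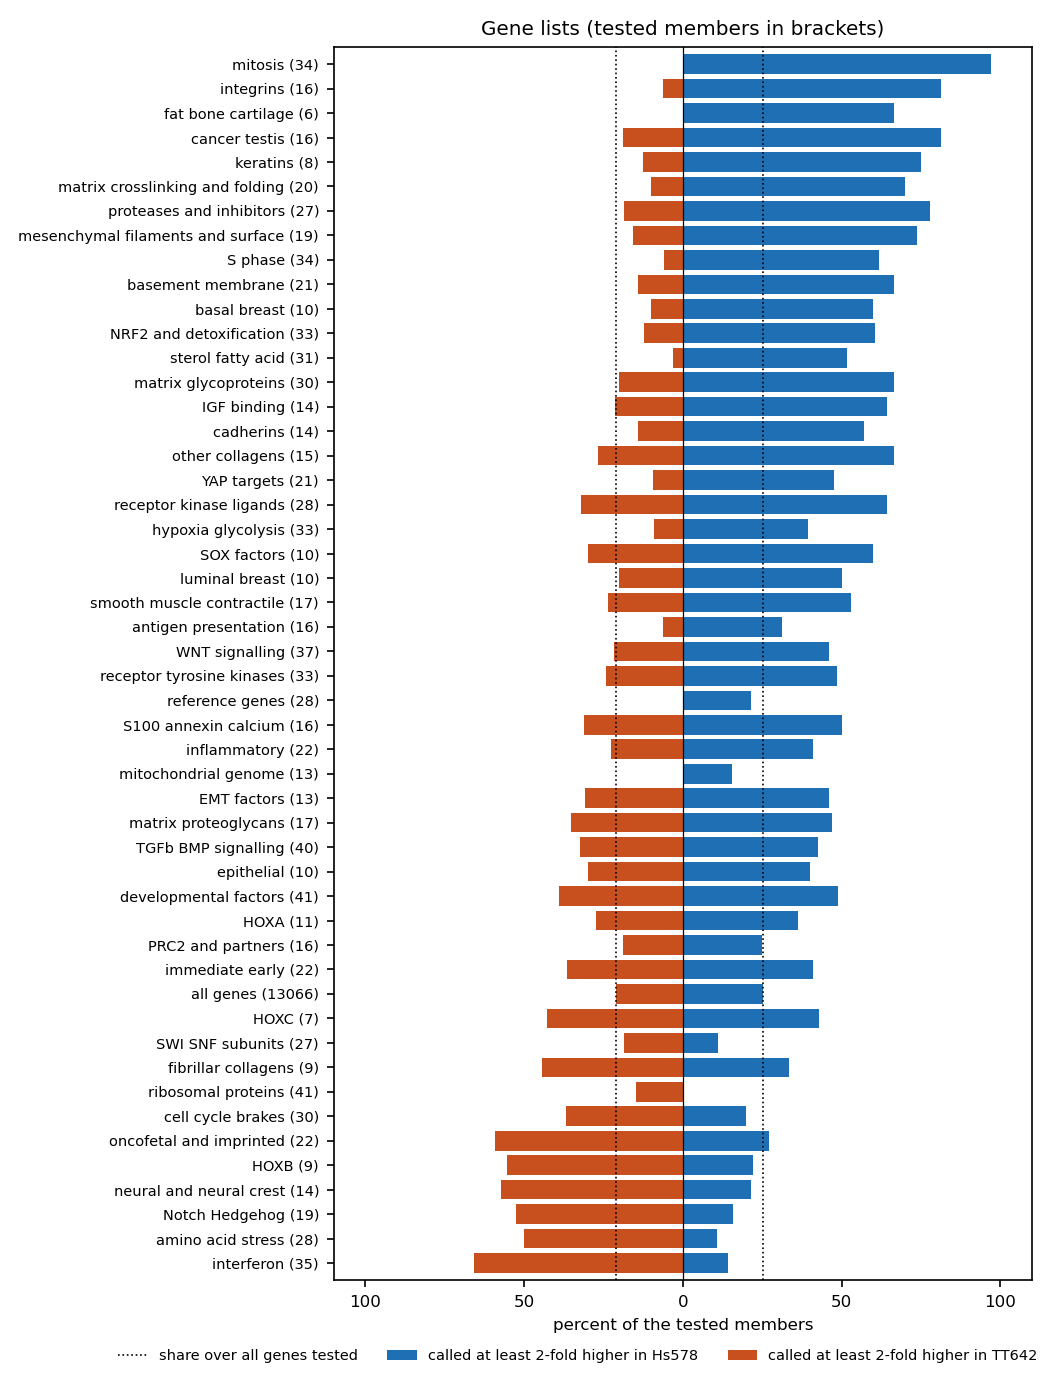
Percent of the tested members of each gene list that were called at least 2-fold higher in Hs578 (blue, to the right) or in TT642 (orange, to the left), for lists with 5 or more tested members. The dotted lines mark the shares over all 13066 tested genes, 25.3% and 21.0%, and the lists run from mitosis at the top to interferon genes at the bottom.

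Of 17 tested contractile genes, 9 (52.9%) were at least 2-fold higher in Hs578 and 4 (23.5%) in TT642. The latter share was near the 21.0% over all genes. ACTG2, smooth muscle gamma actin, stood at 143, 144, 182 and 146 CPM in Hs578 and 0.236, 0.171, 0.148 and 0 CPM in TT642. For ACTG2 the lines did not overlap, with Hs578 the higher (log2 fold change 10, SE 0.222, adjusted p = 1.13e-12). CALD1, which encodes caldesmon, was at 643 ± 40.2 against 2.93 ± 1.47 CPM (log2 fold change 7.77, SE 0.307, adjusted p = 2.45e-08). MYOCD, the coactivator of smooth muscle genes, was at 12.6 ± 1.47 against 0.0118 ± 0.0236 CPM. MYOCD had a ratio of scaled count totals of 970 in favour of Hs578 (95% exact interval 174 to 38400). TAGLN was higher in TT642, at 66.6 ± 12.2 against 189 ± 32.4 CPM (log2 fold change -1.51, SE 0.149, adjusted p = 2.7e-06), as was ACTA2, smooth muscle alpha actin, at 17.3 ± 1.3 against 41.6 ± 11.8 CPM (log2 fold change -1.26, SE 0.184, adjusted p = 7.45e-05). Among fat, bone and cartilage genes 6 of 15 were tested, and 4 (66.7%) were at least 2-fold higher in Hs578. Their median log2 fold change was 4.84 (4 with genes at 0 in a line set at their bound). SOX9, a regulator of cartilage, was at 142, 138, 158 and 115 CPM in Hs578 and 11.8, 3.66, 1.88 and 2.48 CPM in TT642. The SOX9 levels lay apart, with Hs578 above TT642 (log2 fold change 4.77, SE 0.544, adjusted p = 0.00012). The TT642 mean of SOX9 was 4.96 CPM, and 2.67 CPM without the parental library. RUNX2, a regulator of bone, was at 59.7 ± 4.19 against 1.96 ± 0.625 CPM (log2 fold change 4.91, SE 0.157, adjusted p = 1.62e-11). PPARG, a regulator of fat, was at 41.8 ± 3.23 against 0.721 ± 0.0944 CPM (log2 fold change 5.85, SE 0.127, adjusted p = 5.7e-13). S100 and annexin genes split, with 8 of 16 (50%) at least 2-fold higher in Hs578 and 5 (31.2%) in TT642. S100A6 was at 937 ± 66.8 against 116 ± 14.9 CPM (log2 fold change 3.02, SE 0.101, adjusted p = 2.13e-11), S100P at 0.133 ± 0.089 against 102 ± 7.4 CPM (log2 fold change -9.51, SE 0.2, adjusted p = 4.53e-13) and ANXA1 at 371 ± 25.3 against 2830 ± 265 CPM (log2 fold change -2.93, SE 0.0867, adjusted p = 7.46e-12).

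HOX genes encode positional identity along the body axis, and their order in each cluster follows that axis. The lines differed by cluster and by position. Of 11 tested HOXA genes, 4 (36.4%, against 25.3% over all genes) were at least 2-fold higher in Hs578 and 3 (27.3%, against 21.0%) in TT642. Those higher in Hs578 were HOXA7, HOXA9, HOXA10 and HOXA13. HOXA7 was at 6.52 ± 0.739 against 0.312 ± 0.191 CPM (log2 fold change 4.4, SE 0.289, adjusted p = 1.38e-08). HOXA9 stood at 9.3, 10.6, 10 and 11.3 CPM in Hs578 and 0 CPM in every TT642 library, which is at least 65.3-fold higher in Hs578, and HOXA10 stood at 14, 14.7, 14.9 and 15 CPM in Hs578 and 0.52, 0.228, 0.198 and 0.338 CPM in TT642. HOXA10 was higher in every Hs578 library than in any TT642 library (log2 fold change 5.46, SE 0.205, adjusted p = 6.27e-11). HOXA2 and HOXA3 were higher in TT642, with HOXA3 at 10.2 ± 0.561 against 22.8 ± 1.45 CPM (log2 fold change -1.16, SE 0.09, adjusted p = 6.72e-08). HOXA11 was also on the TT642 side, at 0.251 ± 0.0704 against 1.5 ± 0.406 CPM (log2 fold change -2.55, SE 0.33, adjusted p = 1e-05). In the HOXB cluster 5 of 9 tested genes (55.6%) were at least 2-fold higher in TT642 and 2 (22.2%) in Hs578. HOXB7 stood at 1.04, 0.591, 0.738 and 0.759 CPM in Hs578 and 27.1, 27.9, 23.9 and 25.8 CPM in TT642. For HOXB7 the lines did not overlap, with TT642 the higher (log2 fold change -5.05, SE 0.148, adjusted p = 6.8e-12). HOXB4 was at 0.0578, 0.296, 0.0615 and 0.117 CPM in Hs578 and 20.6, 22, 19.5 and 18.6 CPM in TT642. The HOXB4 levels lay apart, with TT642 above Hs578 (log2 fold change -7.17, SE 0.241, adjusted p = 2.29e-11). HOXB9 and HOXB13, nearest the posterior end, were the ones at least 2-fold higher in Hs578: HOXB9 (17.3 against 3.8 CPM) and HOXB13 (5.47 against 1.26 CPM). In the HOXC cluster, HOXC8 stood at 3.47, 2.84, 4.55 and 2.69 CPM in Hs578 and 85.5, 76.5, 79.2 and 80.6 CPM in TT642 (log2 fold change -4.57, SE 0.132, adjusted p = 6.19e-12), whereas HOXC13 was at 9.38 ± 1.88 against 0.454 ± 0.23 CPM (log2 fold change 4.34, SE 0.284, adjusted p = 1.29e-08) and HOXC11 at 5.41 ± 0.719 against 0 ± 0 CPM. HOXC11 was thus at least 34.3-fold higher in Hs578. HOXC4 was at 11.6 ± 0.446 against 2.34 ± 0.685 CPM (log2 fold change 2.32, SE 0.191, adjusted p = 1.25e-07). HOXC10 differed by a small amount, at 44.8 ± 2.99 against 54.5 ± 5.76 CPM (log2 fold change -0.283, SE 0.0878, adjusted p = 0.00923). In the HOXD cluster only HOXD13 passed the filter, at 0.771 ± 0.149 against 0.0621 ± 0.0589 CPM.

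**Figure D4:**
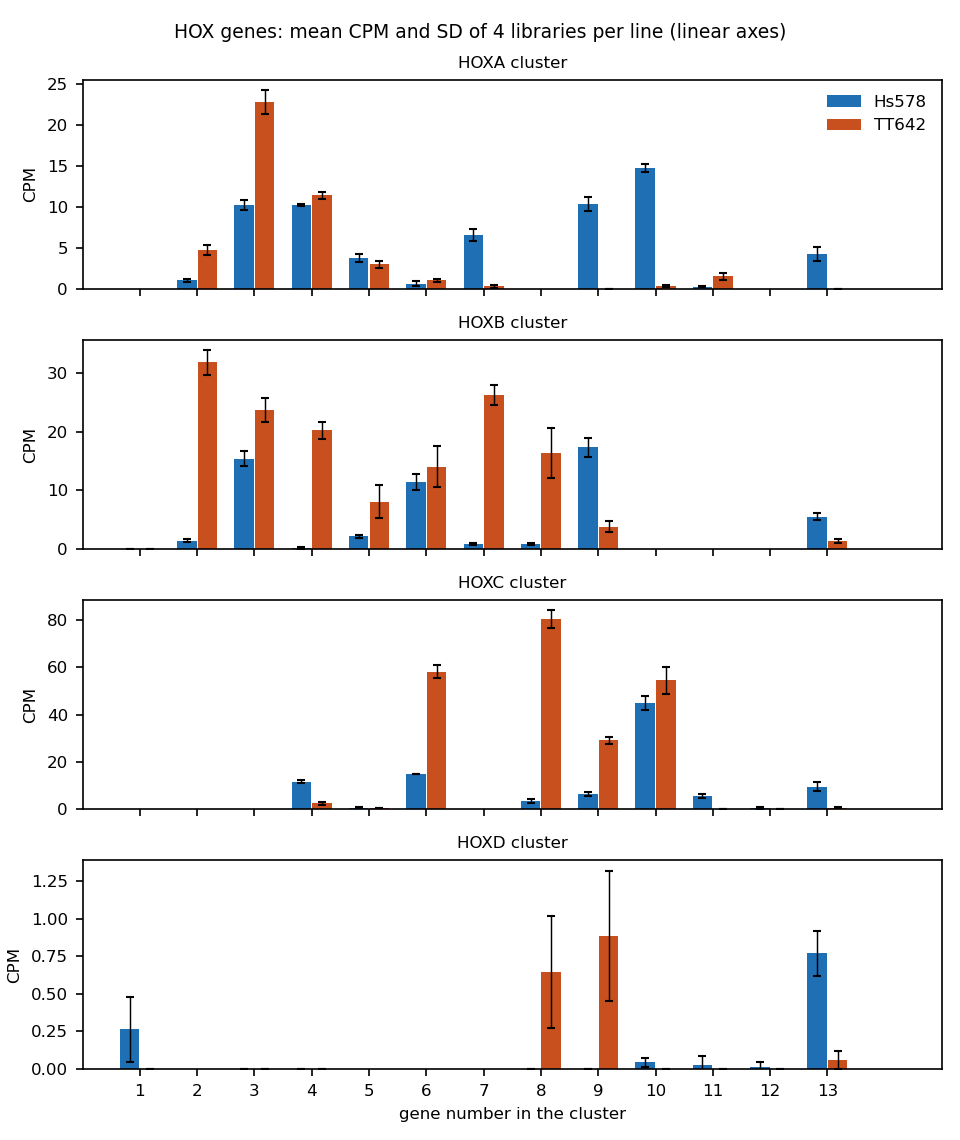
Mean CPM of HOX genes in Hs578 (blue) and TT642 (orange), by its number in the cluster, with the SD of 4 libraries, on linear axes whose ranges differ between clusters. TT642 bars stand above Hs578 bars at HOXA2 and HOXA3, HOXB2 to HOXB8 and HOXC6 to HOXC9. Hs578 bars stand above at HOXA7, HOXA9, HOXA10, HOXA13, HOXB9, HOXB13, HOXC4, HOXC11 and HOXC13.

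All 41 other developmental transcription factors tested were called, against 84.6% over all genes. Of these, 20 (48.8%, against 25.3% over all genes) were at least 2-fold higher in Hs578 and 16 (39%, against 21.0%) in TT642. GATA6, a factor of endoderm and heart, stood at 45.9, 49, 48 and 48.9 CPM in Hs578 and 0, 0.114, 0 and 0.113 CPM in TT642. GATA6 was higher in every Hs578 library than in any TT642 library (log2 fold change 9.66, SE 0.241, adjusted p = 1.7e-12). FOXF2, a factor of gut mesenchyme, was at 26.4 ± 1.97 against 0.172 ± 0.0563 CPM (log2 fold change 7.22, SE 0.176, adjusted p = 1.39e-12). TBX3, a limb and breast bud factor, was at 173 ± 10.8 against 3.21 ± 1.21 CPM (log2 fold change 5.77, SE 0.19, adjusted p = 1.87e-10). On the TT642 side MEOX2, a factor of somites and limb muscle, stood at 0 CPM in every Hs578 library and 33.8, 36.4, 53 and 46.6 CPM in TT642. MEOX2 was thus at least 239-fold higher in TT642. HAND2, a factor of heart, limb and sympathetic neurons, was at 0.347, 0.296, 0 and 0.35 CPM in Hs578 and 72.3, 101, 127 and 108 CPM in TT642. For HAND2 the lines did not overlap, with TT642 the higher (log2 fold change -8.63, SE 0.337, adjusted p = 4.78e-09). LHX9 was at 2.85 ± 0.12 against 178 ± 25.6 CPM (log2 fold change -5.96, SE 0.128, adjusted p = 5.48e-13). SOX genes divided too, 6 (60%) against 3 (30%) of 10. SOX8 was at 0 CPM in every Hs578 library and 290, 227, 167 and 273 CPM in TT642, which is at least 1350-fold higher in TT642, and it ran opposite to SOX9, a member of the same subgroup. SOX18, known from endothelium, was at 0.591 ± 0.142 against 109 ± 10.4 CPM (log2 fold change -7.51, SE 0.141, adjusted p = 2.09e-13). SOX21, a neural factor, was at 0.312 ± 0.197 against 32.4 ± 6.05 CPM (log2 fold change -6.67, SE 0.259, adjusted p = 1.65e-10). SOX4 was at 175 ± 28.1 against 23.6 ± 3.52 CPM (log2 fold change 2.89, SE 0.132, adjusted p = 1.02e-09).

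All 28 tested ligands of receptor tyrosine kinases were called, against 84.6% over all genes. Of these, 18 (64.3%, against 25.3% over all genes) were at least 2-fold higher in Hs578 and 9 (32.1%, against 21.0%) in TT642. HGF, the ligand of MET, stood at 0.462, 0.296, 0.185 and 0 CPM in Hs578 and 903, 945, 1090 and 975 CPM in TT642. The HGF levels lay apart, with TT642 above Hs578 (log2 fold change -12, SE 0.254, adjusted p = 3.22e-12). MET itself was not called, at 455 ± 43.2 against 340 ± 142 CPM (log2 fold change 0.422, SE 0.279, adjusted p = 0.191). FGF2 was at 62.2, 46.9, 43.3 and 40.2 CPM in Hs578 and 1340, 736, 744 and 710 CPM in TT642. FGF2 was higher in every TT642 library than in any Hs578 library (log2 fold change -4.2, SE 0.272, adjusted p = 1.03e-06). FGF10 was at 0 CPM in every Hs578 library and 10.9, 10.1, 11.6 and 6.26 CPM in TT642. FGF10 was thus at least 54.5-fold higher in TT642. On the Hs578 side NRG1, the neuregulin that binds ERBB3 and ERBB4, was at 65.6, 67.3, 59.2 and 63.2 CPM in Hs578 and 0, 0, 0.0494 and 0 CPM in TT642. NRG1 had a ratio of scaled count totals of 4900 in favour of Hs578 (95% exact interval 878 to 193000). FGF5 was at 196 ± 36.4 against 0.353 ± 0.39 CPM (log2 fold change 9.04, SE 0.408, adjusted p = 8.43e-08), and its TT642 mean was 0.171 CPM without the parental library. CSF1, the macrophage growth factor, was at 323 ± 29.3 against 35.1 ± 10 CPM (log2 fold change 3.2, SE 0.185, adjusted p = 9.41e-08). Of 33 receptors tested, 16 (48.5%) were at least 2-fold higher in Hs578 and 8 (24.2%) in TT642. INSR, the insulin receptor, stood at 0.231, 0, 0.0615 and 0 CPM in Hs578 and 77.6, 86.1, 90.4 and 82.8 CPM in TT642 (log2 fold change -10, SE 0.253, adjusted p = 3.14e-12), and the related IGF1R was at 32.8 ± 2.72 against 24.2 ± 2.42 CPM. For IGF1R the lines did not overlap, with Hs578 the higher (log2 fold change 0.437, SE 0.0946, adjusted p = 0.000831). AXL, the GAS6 receptor, was at 1940, 1760, 1780 and 1800 CPM in Hs578 and 56.1, 48.9, 47.3 and 56.1 CPM in TT642. The AXL levels lay apart, with Hs578 above TT642 (log2 fold change 5.12, SE 0.0896, adjusted p = 1.25e-13). EPHB6 was at 39.1 ± 10.6 against 0.0423 ± 0.0845 CPM, and MERTK, of the AXL family, was at 3.27 ± 1.12 against 33.8 ± 5.34 CPM (log2 fold change -3.37, SE 0.213, adjusted p = 3.65e-08), which was the opposite direction to AXL.

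IGF-binding proteins were mostly higher in Hs578, 9 of 14 genes on that list (64.3%) against 3 (21.4%). The latter share was near the 21.0% over all genes. IGFBP7 stood at 352, 351, 399 and 379 CPM in Hs578 and 0, 0.171, 0 and 0 CPM in TT642 (a ratio of scaled count totals of 9450 in favour of Hs578 (95% exact interval 3230 to 45800, counting error only)). IGFBP3 was at 308 ± 55 against 3 ± 0.603 CPM (log2 fold change 6.68, SE 0.178, adjusted p = 1.6e-11). IGFBP2 was higher in TT642, at 0.0581 ± 0.0671 against 12.4 ± 12 CPM (log2 fold change -7.55, SE 1.34, adjusted p = 0.00123). Its TT642 mean was 6.52 CPM without the parental library. Also higher there was the IGFBP protease PAPPA, at 137 ± 21 against 807 ± 134 CPM (log2 fold change -2.56, SE 0.138, adjusted p = 7.14e-09). Of 40 tested genes of TGF-beta and BMP signalling, 17 (42.5%) were at least 2-fold higher in Hs578 and 13 (32.5%) in TT642. TGFB2, a ligand, stood at 225, 238, 185 and 206 CPM in Hs578 and 1.66, 1.09, 0.494 and 0.169 CPM in TT642. TGFB2 was higher in every Hs578 library than in any TT642 library (log2 fold change 7.93, SE 0.325, adjusted p = 2.53e-08). LTBP1, which holds latent TGF-beta in the matrix, was at 1130 ± 78.9 against 8.93 ± 3.25 CPM (log2 fold change 6.98, SE 0.247, adjusted p = 3.85e-09). INHBB, an activin subunit, was at 29.3 ± 1.9 against 0.0141 ± 0.0282 CPM. INHBB had a ratio of scaled count totals of 2250 in favour of Hs578 (95% exact interval 403 to 88900). BMP5 was at 0.0578, 0.177, 0 and 0 CPM in Hs578 and 110, 130, 149 and 126 CPM in TT642. For BMP5 the lines did not overlap, with TT642 the higher (log2 fold change -10.9, SE 0.261, adjusted p = 2.56e-12). GDF15, a stress-induced member of the family, was at 23.9 ± 9.35 against 260 ± 18.5 CPM (log2 fold change -3.45, SE 0.243, adjusted p = 1.44e-06). The BMP target genes ID1, ID2 and ID3 were all at least 2-fold higher in TT642, for example ID1 (38.4 against 84.8 CPM) and ID3 (96.8 against 215 CPM).

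Of 37 tested WNT genes, 17 (45.9%) were at least 2-fold higher in Hs578 and 8 (21.6%) in TT642. The latter share was near the 21.0% over all genes. WNT5A, a ligand of the non-canonical branch, stood at 318, 328, 247 and 296 CPM in Hs578 and 0.0473, 0, 0 and 0.0564 CPM in TT642 (a ratio of scaled count totals of 11400 in favour of Hs578 (95% exact interval 3160 to 94200, counting error only)). WNT7B was at 259 ± 12.4 against 0.139 ± 0.0934 CPM (log2 fold change 10.7, SE 0.184, adjusted p = 1.09e-13). FZD6, a receptor, was at 320, 293, 257 and 265 CPM in Hs578 and 0.0946, 0.0571, 0.0494 and 0.0564 CPM in TT642. The FZD6 levels lay apart, with Hs578 above TT642 (log2 fold change 11.9, SE 0.167, adjusted p = 4e-14). RNF43, which removes WNT receptors from the surface, was at 11.4 ± 1.41 against 0 ± 0 CPM. RNF43 was thus at least 72.3-fold higher in Hs578. WNT2 was at 0 CPM in every Hs578 library and 7.71, 16.7, 19.8 and 20.9 CPM in TT642. WNT2 was thus at least 91.7-fold higher in TT642. AXIN2, a general target of the canonical branch, was at 7.62 ± 0.702 against 4.4 ± 1.85 CPM (log2 fold change 0.792, SE 0.256, adjusted p = 0.0126). Notch and Hedgehog genes leaned to TT642, 10 of 19 (52.6%) against 3 (15.8%), with a median log2 fold change of -1.45. Genes that Hedgehog signalling itself induces, GLI1, PTCH1 and HHIP, were higher there. GLI1 stood at 2.14, 2.07, 3.32 and 2.34 CPM in Hs578 and 60.3, 78.5, 68.1 and 80.3 CPM in TT642. GLI1 was higher in every TT642 library than in any Hs578 library (log2 fold change -4.86, SE 0.151, adjusted p = 1.28e-11). PTCH1, the receptor, was at 0.231, 0.296, 0.308 and 0.234 CPM in Hs578 and 16.2, 21.6, 21.7 and 20.2 CPM in TT642. For PTCH1 the lines did not overlap, with TT642 the higher (log2 fold change -6.19, SE 0.19, adjusted p = 1.03e-11). HHIP, a secreted inhibitor, was at 89.1, 83.8, 79.6 and 73.2 CPM in Hs578 and 1280, 1160, 1230 and 1110 CPM in TT642. The HHIP levels lay apart, with TT642 above Hs578 (log2 fold change -3.88, SE 0.0864, adjusted p = 6.98e-13). The ligand genes SHH, IHH and DHH had means of at most 0.304 CPM and were not tested. The Notch ligands crossed, with JAG1 at 624, 565, 575 and 538 CPM in Hs578 and 4.3, 5.94, 2.32 and 5.13 CPM in TT642 (log2 fold change 7.03, SE 0.227, adjusted p = 9.34e-10) and JAG2 at 0.173, 0.0591, 0.123 and 0.0584 CPM in Hs578 and 145, 184, 162 and 206 CPM in TT642. JAG2 was higher in every TT642 library than in any Hs578 library (log2 fold change -10.6, SE 0.216, adjusted p = 3.97e-13). NOTCH3, a receptor of mural cells, was at 55.4 ± 5.53 against 439 ± 36.2 CPM (log2 fold change -2.98, SE 0.0911, adjusted p = 9.84e-12).

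Genes induced by YAP were counted at 10 of 21 (47.6%) at least 2-fold higher in Hs578 against 2 (9.52%) in TT642. CTGF was at 588 ± 179 against 15.5 ± 12 CPM (log2 fold change 5.26, SE 0.676, adjusted p = 0.000256), and without hairpin line 3 its TT642 mean was 10 CPM. CYR61 was at 796 ± 256 against 128 ± 19 CPM (log2 fold change 2.63, SE 0.248, adjusted p = 1.21e-05). F3, tissue factor, was at 65.8, 73.1, 79.7 and 63.5 CPM in Hs578 and 0, 0.343, 0.0494 and 0.282 CPM in TT642. For F3 the lines did not overlap, with Hs578 the higher (log2 fold change 8.75, SE 0.282, adjusted p = 7.82e-11). Leaving out hairpin line 1 lowered the TT642 mean of F3 from 0.169 to 0.11 CPM. LATS2, a kinase that restrains YAP, was higher in TT642, at 24.4 ± 1.61 against 117 ± 8.35 CPM (log2 fold change -2.27, SE 0.0795, adjusted p = 3.35e-11).

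Proliferation genes stood higher in Hs578. The mitosis list had the highest share of any list drawn: all 34 members were tested and called higher in Hs578, 33 of them at least 2-fold (97.1%, against 25.3% over all genes), and the median log2 fold change was 3.15. KIF20A, a kinesin of cytokinesis, stood at 259, 270, 252 and 259 CPM in Hs578 and 3.55, 5.03, 5.34 and 6.37 CPM in TT642. The KIF20A levels lay apart, with Hs578 above TT642 (log2 fold change 5.69, SE 0.135, adjusted p = 1.7e-12). NUF2, a kinetochore subunit, was at 99.1 ± 10.6 against 3.88 ± 0.873 CPM (log2 fold change 4.68, SE 0.146, adjusted p = 1.96e-11). ANLN, the cleavage furrow scaffold anillin, was at 537 ± 50.8 against 24.6 ± 4.48 CPM (log2 fold change 4.45, SE 0.138, adjusted p = 2.85e-11). PLK1, a mitotic kinase, was at 171 ± 8.18 against 9.25 ± 1.47 CPM (log2 fold change 4.21, SE 0.106, adjusted p = 1.84e-12). TOP2A, a topoisomerase, was at 766 ± 59.3 against 66.5 ± 11.5 CPM (log2 fold change 3.53, SE 0.126, adjusted p = 7.7e-11). BUB3 was the 1 member under 2-fold, at 138 ± 5.5 against 81.9 ± 6.23 CPM (log2 fold change 0.75, SE 0.071, adjusted p = 4.92e-07). Genes of S phase followed with smaller differences, 21 of 34 (61.8%) at least 2-fold higher in Hs578 and 2 (5.88%) in TT642. Their median log2 fold change was 1.31. RRM2, a subunit of ribonucleotide reductase, stood at 290, 286, 286 and 288 CPM in Hs578 and 25.7, 35.5, 37 and 37.3 CPM in TT642. RRM2 was higher in every Hs578 library than in any TT642 library (log2 fold change 3.09, SE 0.109, adjusted p = 3.78e-11). MCM4, a helicase subunit, was at 281 ± 9.27 against 63.9 ± 8.95 CPM (log2 fold change 2.14, SE 0.0963, adjusted p = 3.48e-10). The exceptions were RFC3, a clamp loader subunit at 33.3 ± 3.48 against 75.8 ± 17.7 CPM, and CCNE1, which encodes cyclin E1, at 12.5, 11.8, 12.3 and 11.7 CPM in Hs578 and 46.9, 56.9, 50.2 and 52.1 CPM in TT642. For CCNE1 the lines did not overlap, with TT642 the higher (log2 fold change -2.09, SE 0.0841, adjusted p = 1.22e-10). CCNE2, which encodes cyclin E2, ran the other way, at 22.1 ± 3.03 against 1.71 ± 0.303 CPM (log2 fold change 3.68, SE 0.154, adjusted p = 1.78e-10). Growth rate and confluence of the cultures were not given in the labels, and their part in these counts was not tested.

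The list of cell cycle brakes, D-type cyclins, their kinases and related genes had 11 of 30 (36.7%) at least 2-fold higher in TT642 and 6 (20%) in Hs578. Cyclin D2 and its kinase CDK6 were opposed. CCND2 stood at 1.85, 1.77, 2.58 and 1.69 CPM in Hs578 and 367, 226, 172 and 211 CPM in TT642 (log2 fold change -6.95, SE 0.323, adjusted p = 8.77e-08), and CDK6 stood at 141, 113, 88.2 and 92.7 CPM in Hs578 and 0.52, 0.4, 0.148 and 0.958 CPM in TT642. The CDK6 levels lay apart, with Hs578 above TT642 (log2 fold change 7.76, SE 0.31, adjusted p = 7.52e-09). CDK4, the other kinase of D-type cyclins, was at 163 ± 17.5 against 210 ± 13.4 CPM (log2 fold change -0.369, SE 0.0832, adjusted p = 0.00114). CCND1 was at 920 ± 24.9 against 288 ± 13 CPM (log2 fold change 1.68, SE 0.0641, adjusted p = 7.5e-11). CDKN1A, the inhibitor p21, stood at 58.1, 66.4, 69.3 and 60.6 CPM in Hs578 and 447, 344, 322 and 353 CPM in TT642. CDKN1A was higher in every TT642 library than in any Hs578 library (log2 fold change -2.53, SE 0.107, adjusted p = 2.14e-10). MDM2, a ubiquitin ligase, was at 70.5 ± 4.9 against 250 ± 55.2 CPM (log2 fold change -1.83, SE 0.135, adjusted p = 1.3e-07). BBC3, the death protein PUMA, was at 4.86 ± 0.51 against 50.7 ± 2.8 CPM (log2 fold change -3.38, SE 0.0966, adjusted p = 5.74e-12). CDKN2A was low in both, at 0.532 ± 0.0573 against 2.08 ± 0.428 CPM (log2 fold change -1.96, SE 0.251, adjusted p = 9.23e-06). CDKN2C, the inhibitor p18, was at 73.5 ± 4.22 against 3.53 ± 0.775 CPM (log2 fold change 4.38, SE 0.133, adjusted p = 9.33e-12).

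Among the lists with 5 or more tested members, interferon-stimulated genes had the highest share on the TT642 side. Of 35 genes, all tested, 23 (65.7%, against 21.0% over all genes) were at least 2-fold higher in TT642 and 5 in Hs578, with a median log2 fold change of -1.96. IFI44L stood at 3.64, 3.67, 1.91 and 2.1 CPM in Hs578 and 171, 193, 270 and 171 CPM in TT642. For IFI44L the lines did not overlap, with TT642 the higher (log2 fold change -6.14, SE 0.253, adjusted p = 1.26e-08). IFIT2, an inhibitor of viral translation, was at 1.79, 1.66, 1.85 and 1.81 CPM in Hs578 and 105, 63.2, 122 and 67.4 CPM in TT642. The IFIT2 levels lay apart, with TT642 above Hs578 (log2 fold change -5.65, SE 0.286, adjusted p = 6.42e-08). IFIH1, which encodes the double-stranded RNA sensor MDA5, was at 12.3, 11.2, 9.66 and 9.11 CPM in Hs578 and 355, 387, 513 and 378 CPM in TT642. IFIH1 was higher in every TT642 library than in any Hs578 library (log2 fold change -5.27, SE 0.147, adjusted p = 1.33e-11). MX1, an antiviral GTPase, was at 8.84, 5.08, 3.81 and 4.32 CPM in Hs578 and 303, 116, 55.1 and 97.5 CPM in TT642, and the TT642 parental library was the highest. For MX1 the lines did not overlap, with TT642 the higher (log2 fold change -4.69, SE 0.682, adjusted p = 5e-04). With the parental library left out, the TT642 mean of MX1 was 89.5 in place of 143 CPM. The exceptions included GBP2, at 5.43, 7.04, 4.24 and 5.2 CPM in Hs578 and 0 CPM in every TT642 library. GBP2 was thus at least 34.7-fold higher in Hs578. GBP1 was at 28.9 ± 2.32 against 7.34 ± 2.18 CPM (log2 fold change 1.98, SE 0.17, adjusted p = 3.27e-07). SAMD9L was at 30.2 ± 5.02 against 1.81 ± 0.984 CPM (log2 fold change 4.03, SE 0.289, adjusted p = 4.54e-07). Of 16 tested antigen presentation genes, most of them of class I, 5 (31.2%, against 25.3% over all genes) were at least 2-fold higher in Hs578 and 1 in TT642. PSMB8, an immunoproteasome subunit, was at 29.4 ± 1.26 against 0.718 ± 0.256 CPM (log2 fold change 5.37, SE 0.163, adjusted p = 9.31e-12). ERAP2, a peptide-trimming protease, was at 298, 306, 295 and 300 CPM in Hs578 and 0.331, 0.4, 0.494 and 0.564 CPM in TT642. The ERAP2 levels lay apart, with Hs578 above TT642 (log2 fold change 9.38, SE 0.113, adjusted p = 1.76e-14). TAP1, the peptide transporter, was at 34.8 ± 0.932 against 90.4 ± 10.8 CPM (log2 fold change -1.38, SE 0.0888, adjusted p = 1.13e-08). HLA genes vary between people, and how the counting treated their alleles is unknown.

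Of 22 tested inflammatory genes, 9 (40.9%) were at least 2-fold higher in Hs578 and 5 (22.7%) in TT642. The latter share was near the 21.0% over all genes. CXCL12, a chemokine of stromal cells, stood at 306, 347, 306 and 344 CPM in Hs578 and 0.142, 0.0571, 0 and 0.0564 CPM in TT642. CXCL12 was higher in every Hs578 library than in any TT642 library (log2 fold change 12.1, SE 0.192, adjusted p = 7.57e-14). IL8 was at 35.6 ± 8.79 against 0.036 ± 0.0455 CPM. IL8 had a ratio of scaled count totals of 910 in favour of Hs578 (95% exact interval 311 to 4410). LIF, a cytokine of the IL6 family, was higher in TT642, at 51 ± 2.15 against 207 ± 22.5 CPM (log2 fold change -2.02, SE 0.0858, adjusted p = 1.98e-10), and so was NFKBIA, the inhibitor of NF-kappaB that NF-kappaB itself induces, at 15.2 ± 0.485 against 44.6 ± 10.7 CPM (log2 fold change -1.55, SE 0.144, adjusted p = 6.29e-07). Immediate early genes, which respond within minutes to handling and serum, were split, 9 (40.9%) against 8 (36.4%) of 22. FOSB stood at 54.9, 358, 246 and 24.9 CPM in Hs578 and 6.86, 7.14, 3.85 and 7.5 CPM in TT642 (log2 fold change 4.76, SE 1.01, adjusted p = 0.00378), but in the libraries with doxycycline the difference was not called, at a log2 fold change of 0.0592 and an edgeR adjusted p of 0.86. Without hairpin line 1 the Hs578 mean of FOSB was 109 in place of 171 CPM. NR4A2, a nuclear receptor, was at 2.54, 6.27, 4.24 and 2.92 CPM in Hs578 and 207, 275, 261 and 288 CPM in TT642. For NR4A2 the lines did not overlap, with TT642 the higher (log2 fold change -6.01, SE 0.251, adjusted p = 1.62e-08). MYC was at 133 ± 42.9 against 471 ± 56.7 CPM (log2 fold change -1.83, SE 0.231, adjusted p = 8.2e-05). The median of the list turned sign with the doxycycline libraries, from 0.325 to -0.632.

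Metabolic lists differed in both directions. Sterol and fatty acid synthesis genes were higher in Hs578, 16 of 31 (51.6%) at least 2-fold against 1 (3.23%) in TT642. INSIG1, the sterol sensor partner, stood at 332, 369, 310 and 342 CPM in Hs578 and 15.5, 12.9, 12.1 and 11.7 CPM in TT642. The INSIG1 levels lay apart, with Hs578 above TT642 (log2 fold change 4.69, SE 0.104, adjusted p = 6.85e-13). FADS2, a fatty acid desaturase, was the 1 higher in TT642, at 26.8 ± 3.33 against 146 ± 19.5 CPM (log2 fold change -2.44, SE 0.113, adjusted p = 5.53e-10). Hypoxia and glycolysis genes had 13 of 33 (39.4%) at least 2-fold higher in Hs578 and 3 (9.09%) in TT642. LDHA was at 3130 ± 160 against 622 ± 28 CPM (log2 fold change 2.33, SE 0.0693, adjusted p = 7.74e-12), the stress gene NDRG1 at 275 ± 18.3 against 3.56 ± 0.63 CPM (log2 fold change 6.26, SE 0.117, adjusted p = 2.05e-13) and the carbonic anhydrase CA12 at 256 ± 15.6 against 3.79 ± 1.32 CPM (log2 fold change 6.07, SE 0.186, adjusted p = 1.03e-10). The glucose transporters crossed, with SLC2A1 at 88.1 ± 8 against 23.9 ± 0.713 CPM (log2 fold change 1.88, SE 0.0792, adjusted p = 1.87e-10) and SLC2A3 at 7.26 ± 0.974 against 104 ± 34.1 CPM (log2 fold change -3.85, SE 0.258, adjusted p = 8.36e-07).

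Amino acid stress genes, targets of ATF4, were higher in TT642, 14 of 28 (50%) at least 2-fold against 3 (10.7%) in Hs578. Their median log2 fold change was -0.968. SESN2, an inhibitor of mTORC1 signalling, stood at 50.2, 40.2, 57.3 and 48.5 CPM in Hs578 and 604, 549, 505 and 544 CPM in TT642. SESN2 was higher in every TT642 library than in any Hs578 library (log2 fold change -3.49, SE 0.108, adjusted p = 1.09e-11). PSAT1, an enzyme of serine synthesis, was at 274 ± 56.3 against 1160 ± 43.9 CPM (log2 fold change -2.08, SE 0.131, adjusted p = 2.04e-08). ASNS, asparagine synthetase, was at 224 ± 55.2 against 602 ± 39 CPM (log2 fold change -1.43, SE 0.155, adjusted p = 6.9e-06). SLC7A11, the cystine transporter, was among the exceptions, at 473 ± 73.3 against 93.2 ± 16.9 CPM (log2 fold change 2.34, SE 0.144, adjusted p = 3.15e-08). It also belongs to the list of NRF2 and detoxification genes. Of 33 tested there, 20 (60.6%) were at least 2-fold higher in Hs578 and 4 (12.1%) in TT642. ME1, malic enzyme, was at 150, 151, 121 and 137 CPM in Hs578 and 0 CPM in every TT642 library. ME1 was thus at least 886-fold higher in Hs578. MGST1, a membrane glutathione transferase, was at 140 ± 9.66 against 0.0405 ± 0.0535 CPM, with a ratio of scaled count totals of 3560 in favour of Hs578 (95% exact interval 1220 to 17300, counting error only), and AKR1C1, an aldo-keto reductase, was at 208 ± 24.1 against 3.18 ± 0.687 CPM (log2 fold change 6.02, SE 0.146, adjusted p = 2.3e-12). NQO1, a standard NRF2 target, was not called, at 476 ± 38.8 against 445 ± 22.4 CPM (log2 fold change 0.0987, SE 0.0742, adjusted p = 0.228).

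The largest difference of any gene on the TT642 side was in ALDH1A1, a retinaldehyde dehydrogenase used as a stem cell marker. It stood at 0, 0, 0 and 0.0584 CPM in Hs578 and 5980, 5430, 5230 and 5160 CPM in TT642. Hs578 thus gave 1 read in 4 libraries, against 419000 reads in TT642. The ratio of the scaled count totals was 370000 in favour of TT642, with an exact 95% interval of 66400 to 14600000 for counting error only. ALDH1A3, a related enzyme, ran the other way, at 27 ± 1.89 against 4.15 ± 2.07 CPM (log2 fold change 2.7, SE 0.328, adjusted p = 5.5e-05). GCG, which encodes the peptide hormones glucagon and GLP-1, stood at 0, 0.0591, 0.0615 and 0 CPM in Hs578 and 1320, 1640, 2190 and 1760 CPM in TT642. GCG had a ratio of scaled count totals of 58300 in favour of TT642 (95% exact interval 16100 to 481000). MYOC, a secreted protein of the eye's drainage tissue, was at 0 CPM in every Hs578 library and 136, 192, 235 and 195 CPM in TT642. MYOC was thus at least 1070-fold higher in TT642. HTR1A, a serotonin receptor, was at 0 CPM in every Hs578 library and 86.5, 147, 163 and 144 CPM in TT642. HTR1A was thus at least 759-fold higher in TT642. ZFP42, the pluripotency marker REX1, was at 0 CPM in every Hs578 library and 183, 142, 146 and 143 CPM in TT642. ZFP42 was thus at least 864-fold higher in TT642. CRABP1, a retinoic acid carrier, was at 0 ± 0 against 57.5 ± 23.5 CPM. CRABP1 was thus at least 324-fold higher in TT642.

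Oncofetal and imprinted genes leaned to TT642, 13 of 22 (59.1%) at least 2-fold against 6 (27.3%) in Hs578. IGF2BP1, a fetal RNA-binding protein, stood at 0.404, 0.473, 0.185 and 0.759 CPM in Hs578 and 254, 207, 199 and 170 CPM in TT642. For IGF2BP1 the lines did not overlap, with TT642 the higher (log2 fold change -8.8, SE 0.224, adjusted p = 1.09e-11). GPC3, a fetal glypican, was at 0.0578, 0, 0 and 0 CPM in Hs578 and 85.4, 101, 84.8 and 67.6 CPM in TT642. GPC3 had a ratio of scaled count totals of 5730 in favour of TT642 (95% exact interval 1030 to 226000). DLK1, an imprinted Notch-like surface protein, was at 0 CPM in every Hs578 library and 43.6, 14.8, 9.09 and 9.58 CPM in TT642. DLK1 was thus at least 108-fold higher in TT642. Without the TT642 parental library the bound for DLK1 was 62.8. LIN28B, which blocks the maturation of let-7 microRNAs, was at 0.753 ± 0.337 against 13.4 ± 4.35 CPM (log2 fold change -4.14, SE 0.316, adjusted p = 1.59e-07). HMGA2, a let-7 target, was at 108 ± 11.9 against 649 ± 148 CPM (log2 fold change -2.58, SE 0.157, adjusted p = 4.41e-08). Cancer testis genes, normally confined to the germ line, went with Hs578, 13 of 16 tested (81.2%) against 3 (18.8%). Their median log2 fold change was 10 (6.26 with genes at 0 in a line set at their bound). Only these 16 of 35 in the table passed the filter, mostly through the line where they are high. MAGEA12 stood at 41.7, 42.3, 46.8 and 43 CPM in Hs578 and 0 CPM in every TT642 library. MAGEA12 was thus at least 276-fold higher in Hs578. CTAG2 was at 35.8, 31, 45.1 and 38.4 CPM in Hs578 and 0 CPM in every TT642 library. CTAG2 was thus at least 238-fold higher in Hs578. MAGEA3 and MAGEA6 are near-identical copies between which reads may have been shared, so their separate levels are uncertain. PRAME was higher in TT642, at 66.4 ± 5.66 against 231 ± 6.67 CPM (log2 fold change -1.8, SE 0.0733, adjusted p = 1.35e-10).

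**Figure D5:**
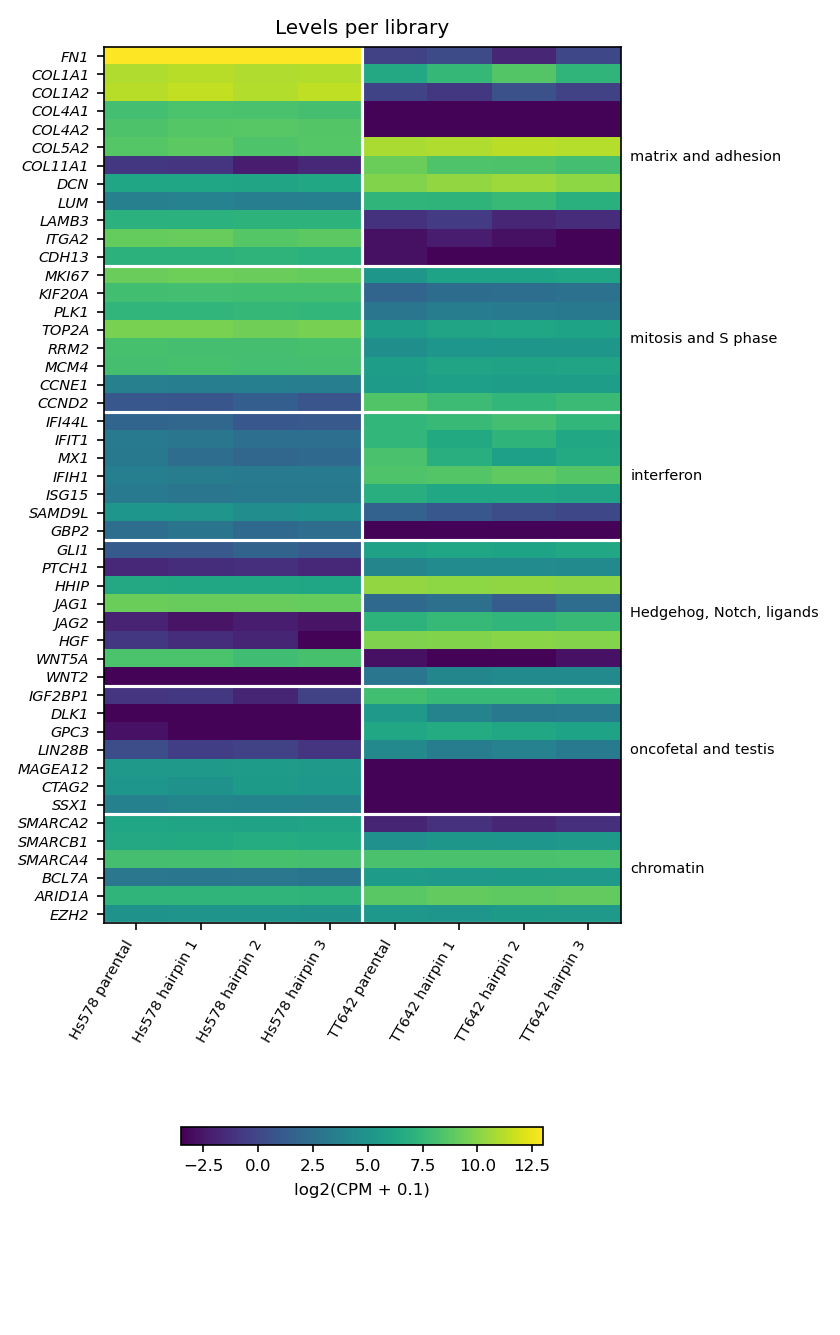
Level of 48 genes of 6 groups in each of the 8 libraries, as log2(CPM + 0.1), from dark (low) to yellow (high). The columns of a line look alike and the lines differ, with FN1, COL4A1 and COL4A2 dark in every TT642 library and DLK1 and WNT2 dark in every Hs578 library.

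Genes with at least 5 CPM in every library of one line and no count in any library of the other numbered 94 on in Hs578 (0.719% of those tested) and 58 on in TT642 (0.444%). Of the latter, 5 are not named here. The highest on in Hs578, after COL4A2, were APCDD1L, a WNT inhibitor relative, at 316, 356, 327 and 338 CPM in Hs578 and 0 CPM in every TT642 library, and CTSZ, the lysosomal protease cathepsin Z, at 301, 303, 331 and 328 CPM in Hs578 and 0 CPM in every TT642 library. APCDD1L was at least 2120-fold higher in Hs578, and CTSZ was at least 2000-fold higher in Hs578. The highest on in TT642, after SOX8 and MYOC, was KLK10, a kallikrein protease, at 0 CPM in every Hs578 library and 176, 198, 198 and 173 CPM in TT642. KLK10 was thus at least 1050-fold higher in TT642. CCDC8, a partner of the CUL7 ubiquitin ligase, was at 0 ± 0 against 70.1 ± 9.44 CPM. CCDC8 was thus at least 395-fold higher in TT642.

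Of 28 tested genes in use as references, 6 (21.4%, against 25.3% over all genes) were at least 2-fold higher in Hs578 and 0 in TT642, YWHAZ at 2020 ± 93.1 against 424 ± 51.5 CPM (log2 fold change 2.25, SE 0.0902, adjusted p = 1.19e-10) among them. GAPDH was at 2970 ± 226 against 1550 ± 77 CPM (log2 fold change 0.935, SE 0.0734, adjusted p = 7.78e-08). HPRT1 was not called, at 37.1 ± 2.53 against 36.8 ± 5.36 CPM (log2 fold change 0.0114, SE 0.104, adjusted p = 0.921). Of 41 ribosomal protein genes, 28 were called higher in TT642, where the share over all genes was 41.8%, and 10 in Hs578. At least 2-fold higher in TT642 were 6 (14.6%, against 21.0% over all genes). The median log2 fold change of the ribosomal list was -0.466, and -0.0536 in the libraries with doxycycline. They took 1.93% ± 0.166 of the counts in Hs578 and 2.89% ± 0.118 in TT642 (exact two-sided permutation test, p = 0.029, the smallest that 4 against 4 libraries allow). RPL4 was at 847 ± 58.2 against 2030 ± 42.8 CPM (log2 fold change -1.26, SE 0.0681, adjusted p = 2.05e-09). Mitochondrial transcripts, at 2.49% ± 0.314 and 2.88% ± 0.289, gave p = 0.17 in the same exact permutation test.

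The same comparison was made in the 8 libraries with doxycycline, which the values above do not use. Of 5894 genes called at least 2-fold here and tested in both, 5879 had the same sign there, and 5273 (89.5%) were again called at least 2-fold in the same direction. These were 88.2% of the 5977 calls of that size with doxycycline. In those libraries the hairpin lines express the hairpin, and they come from the same derived lines, so the repeat is not independent of the cells used here.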

How the data were processed

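Polyadenylated RNA from 500 ng of total RNA was sequenced with a stranded kit, per the labels' protocols. The authors deposited raw counts of reads for 20114 gene symbols and, separately, FPKM values for 20111. Per the submitters' processing notes, reads were placed on hg19. Not given in the sources used here are the aligner, counter, annotation and strand setting. Reads of near-identical copies and of overlapping or antisense genes may thus be shared. FPKM values served as an alternative and to compare genes of different length.

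Columns were matched to samples by title. The test on the counts of the 8 libraries was that of edgeR 4.0.16, run in R 4.3.3 (TMM scaling, default expression filter, robust quasi-likelihood test, 6 residual degrees of freedom, Benjamini-Hochberg adjustment over 13066 genes, two-sided, called at 0.05). The script was tested on simulated data. No 2 libraries agreed within sampling noise (lowest chi-square per degree of freedom 5.35). Folds against a line with no count use a floor of 3 counts per library. Where a line held 1 to 3 counts in all, the ratio of scaled totals is given with an exact interval at the 95% level. Intervals and floors cover counting error only.

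The members and the 53 gene lists were chosen with earlier results of these data known. Of 1237 list symbols, 1228 were found. Genes were named by rule: the 6 markers, the 12 largest differences per direction at 50 CPM or more without overlap, up to 3 members per list at least 2-fold apart and at 5 CPM or more, and the 6 highest per direction at 0 in the other line, 162 in all, of which some are not reported here. Other list members, the genes of the heat map and the promoter stretch were named after their values were seen. RefSeq tables (GRCh38.p14) gave promoters and chromosomes.

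Alternatives were 2 other scalings, DESeq2 1.42.0, no filter, no robust moderation, all 16 libraries, hairpin lines only, a replicate block, limma 3.58.1 on log2(FPKM + 1) and log2(FPKM + 0.1), each library or hairpin number left out, the libraries with doxycycline, and other limits for calls.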

Additional observations from a re-analysis of the deposited data

Results flagged for a closer look

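Each group of 4 libraries with more than 10 counts was screened for a library far from the other 3, over the 162 named genes. The screen compares the gap to the nearest other library with the range of the group. Of 246 groups, 14 passed the critical value, which is near the 1 in 20 that chance flags. In 6 of them the TT642 parental library stood out.

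In TT642 the parental library was low for MKI67 (37.3 CPM against 66.9 to 73.8, gap share 0.855), RRM2 (25.7 against 35.5 to 37.3, 0.872), TUBB (679 against 794 to 811, 0.882) and RPL37 (815 against 894 to 908, 0.855). It was high for ID4 (214 against 87.9 to 101, 0.847) and ZFP42 (183 against 142 to 146, 0.875). Hairpin line 3 was low for CSPG4 (1.97 against 2.37 to 2.46, 0.834) and HOXB2 (28.7 against 32.4 to 33.2, 0.839). Hairpin line 2 was low for FOSB (3.85 against 6.86 to 7.50, 0.863).

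In Hs578, hairpin line 1 was high for FN1 (12200 against 10300 to 10400, 0.915). Hairpin line 2 was low for SMARCA2 (63.3 against 70.8 to 72.0, 0.861) and high for ACTG2 (182 against 143 to 146, 0.915). The parental library was low for MAGEA6 (40.7 against 43.7 to 44.3, 0.830) and high for YWHAZ (2160 against 1960 to 1980, 0.922). None of these libraries reached the range of the other line. The cause of each gap was not tested.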

How the results depend on the processing

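The counts of calls kept within 1.5 times under every other scaling, tool, filter and set of samples tried. Calls of at least 4-fold, a limit added after seeing the data, numbered 2034 higher in Hs578 and 1305 in TT642. The on and off counts moved to 199 and 105 with on set at 1 CPM, and to 278 and 146 with off set at 3 counts or fewer. Leaving out 1 library gave 95 to 132 on in Hs578 and 58 to 68 on in TT642.

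The replicate block gave 5555 calls higher in Hs578 and 5406 in TT642, 3315 and 2740 of them at least 2-fold, and changed no call of a named gene. The kinds of cell (parental, hairpin 1, 2 and 3) did not pair the libraries: deviations from the line means correlated at 0.12, 0.022, -0.08 and 0.098 between same-kind libraries, with -0.16 to 0.12 for other pairs. The block is therefore no paired analysis of matched cultures.

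All 162 named genes kept their call and direction in 22 of the 23 settings, and all but FOSB did so with the doxycycline libraries. FPKM values moved the median log2 fold change of all genes to -0.11 and -0.13, and the Hs578 share of calls of at least 2-fold from 54.7% to 49.2% and 49.3%. The list medians of HOXA, fibrillar collagens and immediate early genes turned sign, with doxycycline only, to 0.226, 0.136 and -0.632. Genes with few counts in both lines were not tested, and a difference there was not detectable at this depth.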

Other observations

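Gene families outside the lists were counted by symbol after the data were seen, as a description without a test. Kallikreins, secreted serine proteases encoded side by side, had 6 tested genes. All 6 were at 0 to 0.136 CPM in Hs578 and passed the filter through TT642, so their direction is fixed by the filter. KLK10 was at 186 CPM and KLK8 at 11.9 CPM in TT642, both at 0 in Hs578. The clustered protocadherins, adhesion proteins of neurons, divided by cluster. The 9 tested alpha genes, at 0 to 0.852 CPM in Hs578, likewise passed through TT642, with PCDHAC1 at 34.1 CPM against 0.0144 CPM in Hs578. Of 14 beta genes, 8 (57.1%, against 25.3% over all genes) were at least 2-fold higher in Hs578 and 3 (21.4%, against 21.0%) in TT642. Of 20 gamma genes, 12 (60%) were at least 2-fold higher in Hs578 and 3 (15%) in TT642. Some beta and gamma genes also passed the filter through 1 line only, which fixes their direction. Examples are PCDHGA2 and PCDHB15, at 0.0525 and 0.238 CPM in TT642, and PCDHB4, at 0.283 CPM in Hs578. Alpha, beta and gamma genes have similar sequences, and reads may be shared between them.

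X-linked genes of the ARMCX, BEX and TCEAL families had 13 tested members. Of these, 8 (61.5%, against 25.3% over all genes) were at least 2-fold higher in Hs578 and 3 (23.1%, against 21.0%) in TT642. ARMCX1, ARMCX3 and TCEAL8 stood at 17.6, 40.8 and 28.0 CPM in Hs578 and at 0 in TT642. ARMCX4, ARMCX2 and TCEAL3 were at 0.0118, 0.247 and 0.43 CPM in TT642. All of these passed the filter through Hs578, which fixes their direction and much of the Hs578 share. BEX1 was at 2.31 CPM in TT642 and at 0 in Hs578, and passed through TT642. Zinc finger genes named ZNF leaned to TT642: of 468 tested, 151 (32.3%) were at least 2-fold higher there and 48 (10.3%) in Hs578, with a median log2 fold change of -0.66, against 21.0% and 25.3% over all genes.

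By RefSeq chromosome, 12028 tested genes could be placed. Chromosome 8 stood apart: of 416 genes, 229 (55%) were at least 2-fold higher in Hs578 and 38 (9.13%) in TT642, with a median log2 fold change of 1.15. Over all placed genes the shares were 25.4% and 21%, and the medians of the other chromosomes ran from -0.52 (chromosome 14) to 0.37 (chromosome 3). DNA copy number was not measured here, and its part was not tested.

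Promoters of the genes on in one line and at 0 in the other were compared by CG dinucleotides in the 300 RefSeq bases around the start. The median was 15 for 63 matched genes on in Hs578, 20.5 for 38 on in TT642, and 26 over 9870 tested genes with a promoter in the table, of which 99.5% held at least 1 CG. Over all 27305 RefSeq promoters the median was 14, below that of either set.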
